A study of Mus musculus with 4 samples.

Results

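The mouse T-cell receptor beta locus on chromosome 6 was described through its variable (V), diversity (D) and joining (J) gene segments in bulk RNA sequencing of T cells. Members were all genes whose GENCODE M21 symbol begins with Trbv, Trbd or Trbj, which gave 51 of the 50600 genes in the deposited tables: 35 Trbv genes, 2 Trbd genes and 14 Trbj genes. GENCODE types 13 of the Trbv genes and 1 Trbj gene, Trbj2-6, as pseudogenes. The series holds 4 libraries in 1 group, numbered by the labels as biological replicates 1 to 4, of primary T cells from C57BL/6NJ mice. No genotype, transgene or treatment was named. Sex was not collected, age was given as unknown, and whether animals were pooled was not stated. The differentiation protocol linked in the labels is named for CD4+ T cells, and the file headers name all 4 samples as mmTh0, activated bulk cells at 72 h. With 1 group there was no contrast between conditions, and the questions were how the receptor signal was divided over the segments and how far the libraries differed.

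A developing T cell assembles the variable part of its beta chain by joining a V, a D and a J segment, with deletion or inversion of the DNA between them. The joined exon is then spliced to a constant gene, Trbc1 or Trbc2. The D and J segments lie in a pair of clusters, Trbd1 with the Trbj1 genes before Trbc1 and Trbd2 with the Trbj2 genes before Trbc2, so Trbd1 can join to either J cluster while Trbd2 joins to the Trbj2 genes. In a pool of many T cell clones the share of transcripts that carry each V gene reflects both how many cells carry it and how much RNA each makes, and bulk data cannot tell these apart.

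The segments are short. Their letters show the annotated sequence, while counted fragments can reach beyond it. The D segments are shown whole, with every base in capitals.
Trbd1: GGGACAGGGGGC
Trbd2: GGGACTGGGGGGGC

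For the V genes the last 36 bases of the coding sequence are shown, the end that joins to D. Capitals run from the first in-frame cysteine codon in the last 24 bases, where the hypervariable CDR3 loop begins. These are the 4 V genes of highest share and the other members of the Trbv13 family, whose similarity bears on read assignment.
Trbv13-2: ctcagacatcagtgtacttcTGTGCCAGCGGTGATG
Trbv13-1: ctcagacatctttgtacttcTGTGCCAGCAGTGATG
Trbv13-3: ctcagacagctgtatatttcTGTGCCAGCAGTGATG
Trbv31: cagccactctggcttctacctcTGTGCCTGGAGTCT
Trbv16: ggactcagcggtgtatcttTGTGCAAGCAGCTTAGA
Trbv1: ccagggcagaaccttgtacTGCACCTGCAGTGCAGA

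The J segments of highest and lowest signal are shown next, followed by the 3 that lack the usual J motif. Capitals mark TTNGG followed, after 4 bases of any kind, by GG, which encodes the Phe-Gly-X-Gly motif of J segments.
Trbj2-7: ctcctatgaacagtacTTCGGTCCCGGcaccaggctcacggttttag
Trbj2-1: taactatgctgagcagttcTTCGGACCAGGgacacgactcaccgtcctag
Trbj1-1: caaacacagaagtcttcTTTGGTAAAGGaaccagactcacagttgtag
Trbj2-2: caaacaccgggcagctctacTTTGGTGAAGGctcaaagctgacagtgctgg
Trbj1-6: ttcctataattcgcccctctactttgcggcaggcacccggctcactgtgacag
Trbj1-7: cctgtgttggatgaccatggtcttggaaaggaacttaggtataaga
Trbj2-6: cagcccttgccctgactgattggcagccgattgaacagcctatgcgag

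All sequences are GENCODE M21 transcripts on GRCm38 (mm10), written 5′ to 3′ on the coding strand. The motif stood on the coding strand of 11 of 14 Trbj segments (78.6%) and of 56 of 80 other receptor and immunoglobulin J segments (70.0%), and on the other strand of none in either set. A match is a description of letters only.

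The libraries held 49613182 to 94222415 counted fragments. The 51 members took 13041 to 26715 of them, or 0.0290 ± 0.00218% (SD, n = 4) of each library's counts. V genes held 86.7 ± 1.10% of the members' counts, J genes 10.9 ± 0.966% and D genes 2.35 ± 0.273%. Per the file headers, a fragment was counted to a gene through its exons. No option was set to count a fragment to every gene whose exons it touched. A fragment that covers V and J, or J and constant exon, may therefore have been counted to none of them or to a single gene. A V, D or J value can thus miss fragments that touch other genes' exons, to an extent that was not tested. Whether the counted fragments came from rearranged, unspliced or unrearranged transcripts was not tested either. Levels are given in TPM, the count divided by exon length and scaled to the same sum in every library. Because D and J exons are 12 to 54 bases long, J is compared here with J only and D with D only.

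All 11 listed markers of CD4 T cells were detected, among them Cd4 at 1056 ± 62.8 TPM. The CD8 co-receptor gene Cd8a stood at 0.190 ± 0.0957 TPM and Cd8b1 at 15.8 ± 2.38. A gene is called detected here when all 4 libraries reached 1 TPM. Of markers of other cells, 0 of 2 matched gamma-delta genes, 0 of 2 natural killer T, 0 of 3 myeloid, 2 of 5 B-cell and 1 of 3 natural killer genes were detected. Their summed levels ran from 1.15 to 1.91, 0.0201 to 0.450, 0.114 to 1.06, 16.1 to 25.4 and 2.66 to 5.17 TPM, and their part in the results was not tested. The gamma-delta list had 5 genes, but Trgc1, Trgc2 and Trgc4 matched no symbol and were not examined. The labels give 1 donor identifier for all 4 libraries, while the X-inactivation transcript Xist stood at 332 and 150.1 TPM in replicates 1 and 2 against 0.877 and 0.392 in replicates 3 and 4. The Y-linked gene Ddx3y stood the other way, at 0.0344 and 0.0834 against 49.0 and 45.8 TPM.

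Of the 51 members, 38 (74.5%) were detected, beside 24.2% of all 50600 genes and 49.4% of 21764 protein-coding genes. The same number of members had a mean count of at least 10. Since 3 counts on a J segment already amount to as much as 4.68 TPM and on Trbd1 to 17.9 TPM, the threshold asks less of D and J than of longer genes. The detected members were 21 of 22 Trbv genes not typed as pseudogenes, 1 of 13 Trbv pseudogenes, both D genes and all 14 J genes. The lowest J count in any library was 45, for Trbj1-1 in replicate 3.

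Trbv13-2 led the V genes. This gene (ENSMUSG00000076469, mm10 chr6:41121396-41121832, plus strand) belongs to a family of 3 V genes in the middle of the locus. Its levels in replicates 1 to 4 were 319, 306, 294 and 311 TPM, from 1820, 1678, 1391 and 2935 counts. All 4 libraries lay above every library of every other V gene, with a mean of 307 ± 10.6 TPM. The lead over Trbv31 depends on the length used: by coding length in place of exon length Trbv31 was first, with 12.34 against 12.33% of the V signal, and in replicate 2 Trbv31 had more counts, 1823 against 1678. The next gene, Trbv31 (chr6:41557691-41558452), is the only V gene on the minus strand and the only one downstream of the constant genes, where joining requires inversion. Trbv31 stood at 246, 270.0, 228 and 244 TPM, again apart from the gene ranked after it. Trbv16 (chr6:41151740-41152230) followed at 191, 222, 189 and 208 TPM, or 202 ± 15.6.

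The ranges of the following 3 V genes over the libraries overlapped. Trbv1 (chr6:40891229-40891885), the most upstream V gene, stood at 187, 199, 168 and 173 TPM. Trbv13-1 stood at 172, 198, 157 and 168 TPM. Trbv3 (chr6:41048290-41048828) stood at 188, 186, 135 and 171 TPM, lowest in replicate 3. Within libraries, Trbv1 exceeded Trbv13-1 in 4 of 4 and Trbv13-1 exceeded Trbv3 in 2 of 4. Trbv16 exceeded Trbv1 in 4 of 4, although their ranges overlapped. Written as usage shares, the percentage of summed Trbv TPM, Trbv1, Trbv13-1 and Trbv3 took 8.40 ± 0.243, 8.03 ± 0.452 and 7.85 ± 0.747% (SD, n = 4). Their order depended on the divisor. As a share of counts Trbv3 stood first of the 3, with 8.94% against 8.78% for Trbv1 and 7.36% for Trbv13-1. By coding length Trbv3 was first as well.

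Below Trbv3 came a step, since every library of Trbv3 exceeded every library of Trbv15. Trbv15 took 5.08, 5.13, 5.47 and 5.83% of V TPM in replicates 1 to 4, and Trbv13-3 took 5.61, 5.18, 5.02 and 5.04%. Trbv19 followed with 4.50 ± 0.252% and Trbv2 with 4.44 ± 0.311%. This order turned with the divisor: as shares of counts, Trbv19 (6.38%) and Trbv2 (6.23%) stood above Trbv15 (4.99%) and Trbv13-3 (4.44%), and by coding length too. These 4 genes close the list of the 10 with the highest shares, which together took 78.2 to 79.6% of V TPM in each library. The leading 3 took 33.8 to 35.9%.

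The other detected V genes formed a tail. Trbv12-2 took 3.51 ± 0.357% and Trbv20 2.87 ± 0.445%, the latter with 3.52% in replicate 4 against 2.52 to 2.72% in the others. Trbv29, Trbv14, Trbv26, Trbv5, Trbv12-1, Trbv4 and Trbv17 had mean shares from 2.28 down to 1.45%. Trbv23 stood at 0.730 ± 0.0988% and Trbv30 at 0.529 ± 0.200%. Among the 22 detected Trbv genes ranked by mean TPM, 8 of 21 neighbouring pairs did not overlap between libraries and 13 did. From Trbv13-2 at the top to the pseudogene Trbv24 at the bottom the mean TPM differed 78.3-fold.

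**Figure D1:**
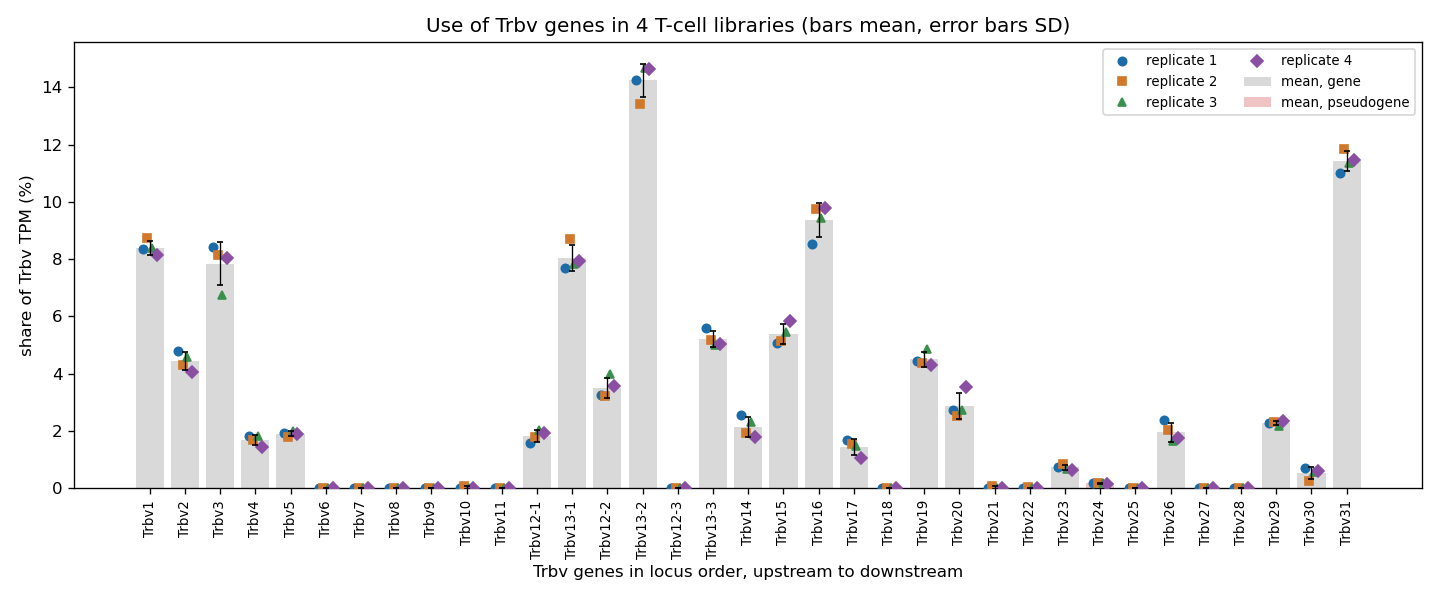
Share of summed Trbv TPM (%, vertical axis) of each of the 35 Trbv genes, in locus order from upstream to downstream. Bars are means over 4 libraries, error bars SD, and points single libraries. Trbv13-2 (14.2%) and Trbv31 (11.4%) stand highest, and the 13 pseudogenes and Trbv21 lie at or near 0.

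Values of 4 V genes may be affected by other genes on the same strand in the authors' annotation. Exons of the long noncoding RNA 5830405F06Rik cover 75.1% of the exon length of Trbv4 and 79.3% of that of Trbv5. An exon of AC153851.1 covers all of Trbv8 and 15.2% of Trbv10. Fragments in the covered bases may have been counted to neither gene, unless they also reached bases of the V gene that are not covered. The shares of Trbv4 (1.69 ± 0.181%) and Trbv5 (1.91 ± 0.0920%) may therefore understate these genes. The 0 counts of Trbv8, which is covered whole, carry no information on its RNA. By how much was not tested. 5830405F06Rik was the only gene detected (2.26 ± 0.227 TPM) among 28 genes between Trbv1 and Trbv31 that are not Trb genes.

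The Trbv pseudogenes were nearly silent in these counts. Of 13, 8 had 0 counts in all 4 libraries: Trbv6, Trbv7, Trbv8, Trbv9, Trbv11, Trbv18, Trbv27 and Trbv28. For these, 3 counts in a library amount to at most 0.536 TPM (Trbv7) to 0.828 TPM (Trbv11). Trbv10 had 10 counts in replicate 2 and 1 in replicate 4, Trbv22 had 4 counts in replicate 2, Trbv12-3 had 1 count each in replicates 2 and 3, and Trbv25 had 1 in replicate 4. Together the pseudogenes took 0.221 ± 0.0713% of V TPM, most of it from Trbv24.

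Trbv24 (ENSMUSG00000102955, chr6:41218091-41218557) was the pseudogene with counts in every library, 26, 24, 17 and 33, or 4.47, 4.28, 3.52 and 3.42 TPM. The annotations differ on this gene: GENCODE M21 types it as a pseudogene and RefSeq (GRCm38.p6) as a V segment. Read from its first ATG, the GENCODE transcript holds 1 in-frame stop, at codon 109 of 115, close to the cysteine that opens the CDR3. It is shown beside the end of the detected gene Trbv26, with codon 109 in capitals in both.
Trbv24 end: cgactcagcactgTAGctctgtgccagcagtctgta
Trbv26 end: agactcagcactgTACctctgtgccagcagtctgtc

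The reverse disagreement concerns Trbv29, a V gene in GENCODE and a pseudogene in RefSeq. Its coding sequence held 0 in-frame stops, and it stood at 50.8, 52.4, 43.7 and 50.1 TPM, with a share of 2.28 ± 0.0729%, within the range of other detected V genes. Trbv21 was the only V gene not typed as a pseudogene that stayed undetected, with 0, 12, 0 and 6 counts in replicates 1 to 4. Both libraries with counts were below 2 TPM, at 1.94 in replicate 2 and 0.564 in replicate 4. Its annotated coding sequence is 291 bases long, against 335 to 372 bases in the other 21 V genes. In those 22 V genes an open frame ran from the start codon to the end in 21, and in Trbv4 the last whole codon, 114 of 114, was a stop in the germline letters.

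Along the chromosome the V signal was uneven. The V genes between the end genes were grouped by position into 3 stretches, chosen after their values were seen. The stretch from Trbv12-1 to Trbv17 held 9 V genes and 51.2 ± 0.897% of V TPM, 5.69% per gene. The 4 genes from Trbv2 to Trbv5 held 15.9 ± 0.805%, 3.97% per gene, a value that includes the overlapped Trbv4 and Trbv5. The 7 V genes from Trbv19 to Trbv30, the nearest to the D segments among those upstream, held 12.9 ± 0.398%, or 1.84% per gene. The summed shares of the stretches did not overlap between libraries. Their borders and gene numbers were not set beforehand, so this is no test of position.

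The single genes at the ends both ranked high. Trbv1 lies 642 kb upstream of Trbd1 and 155 kb before Trbv2, and it took 8.14 to 8.73% of V TPM. Trbv31 lies 9.34 kb beyond Trbc2 and took 10.99 to 11.9%. Trbv30, the closest V gene upstream of Trbd1 at a distance of 251 kb, stood among the lowest. Across the 22 V genes not typed as pseudogenes, usage share and distance to Trbd1 had a Spearman correlation of 0.263, from 0.256 to 0.319 in single libraries, with larger shares farther away. Without the end genes Trbv1 and Trbv31 it was 0.376 over 20 genes. These are descriptions across genes of the same libraries, not tests.

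The Trbv13 and Trbv12 genes alternate within the central stretch and belong to the most similar V genes. Among 231 pairs of V coding sequences the median identity was 56.4%, and 4 pairs reached 75%: Trbv13-2 with Trbv13-3 at 90.6%, Trbv12-1 with Trbv12-2 at 88.2%, Trbv13-1 with Trbv13-2 at 87.9% and Trbv13-1 with Trbv13-3 at 85.3%. Reads that align equally well to several of them may be missing or split, so shares within a family are less certain than the family's sum. The 3 Trbv13 genes together took 27.6, 27.3, 27.5 and 27.6% of V TPM in replicates 1 to 4. That sum varied by 0.131 percentage points (SD), less than any of its 3 members. Counting alone gives SDs of 0.168 to 0.267 points for the count shares of the single members, so nothing is read from the closeness of the sums. Trbv12-1 and Trbv12-2 together took 4.81, 5.01, 6.03 and 5.49%, highest in replicate 3. In each neighbouring pair the Trbv13 gene exceeded the Trbv12 gene before it, Trbv13-1 over Trbv12-1 by 4.44 ± 0.541 times and Trbv13-2 over Trbv12-2 by 4.08 ± 0.300 times in TPM, in 4 of 4 libraries.

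Trbd1 exceeded Trbd2 in every library. Trbd1 (chr6:41533201-41533212), which opens the first cluster, had 327, 247, 244 and 430 counts, and Trbd2 (chr6:41542163-41542176) had 142, 97, 69 and 175. By TPM, Trbd1 was higher by 2.69, 2.97, 4.13 and 2.87 times, highest in replicate 3. Trbd1's share of D counts was 69.7% (exact Clopper-Pearson 95% interval 65.3 to 73.9), 71.8% (66.7 to 76.5), 78.0% (72.9 to 82.4) and 71.1% (67.3 to 74.7). All 4 intervals lay above an even division, and every pair of intervals overlapped. Intervals and floors cover counting error only, and fragments without molecular identifiers are not independent molecules. The segments are 12 and 14 bases long, so the counted fragments reach beyond them, and which other bases they cover was not tested.

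The J genes differed much less among themselves than the V genes. The highest mean TPM exceeded the lowest 3.64-fold, and none of the 13 neighbouring pairs in the order of means was free of overlap between libraries. Trbj2-7 (chr6:41543810-41543856), the last J segment, led with 249, 303, 335 and 296 TPM, from 196, 230, 219 and 387 counts. It took 10.7, 13.4, 14.5 and 15.5% of J TPM, lowest in replicate 1. Trbj2-1, the first segment of the second cluster, followed with 9.80, 11.7, 8.58 and 11.6%. Trbj2-7 ranked first in each library and Trbj2-1 second in replicates 2 and 4, while the ranges of both genes over the libraries overlapped.

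In the first cluster no segment stood apart. Trbj1-6 took 7.89 ± 1.11%, Trbj1-5 7.78 ± 1.51%, Trbj1-2 6.99 ± 1.13%, Trbj1-4 6.78 ± 2.16%, Trbj1-3 6.04 ± 0.978%, Trbj1-7 5.47 ± 2.03% and Trbj1-1 3.71 ± 0.671% of J TPM. Trbj1-4 was high in replicate 1, with 10.01% against 5.55 to 5.86% in the others, from 199, 109, 91 and 155 counts. Trbj1-7 was high in replicates 1 and 3, at 7.87 and 6.42%, against 3.81 and 3.76% in replicates 2 and 4.

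In the second cluster, Trbj2-3 was the steadiest segment, at 6.70, 6.94, 6.73 and 6.87%. Trbj2-5 took 6.75 ± 0.986%, Trbj2-4 6.06 ± 1.02% and Trbj2-2, the lowest of the cluster, 4.12 ± 1.21%. The position of a segment within its cluster had a Spearman correlation of 0.357 with its share in each cluster of 7 segments, ranging over libraries from 0.107 to 0.571 in the first and from 0.321 to 0.464 in the second.

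**Figure D2:**
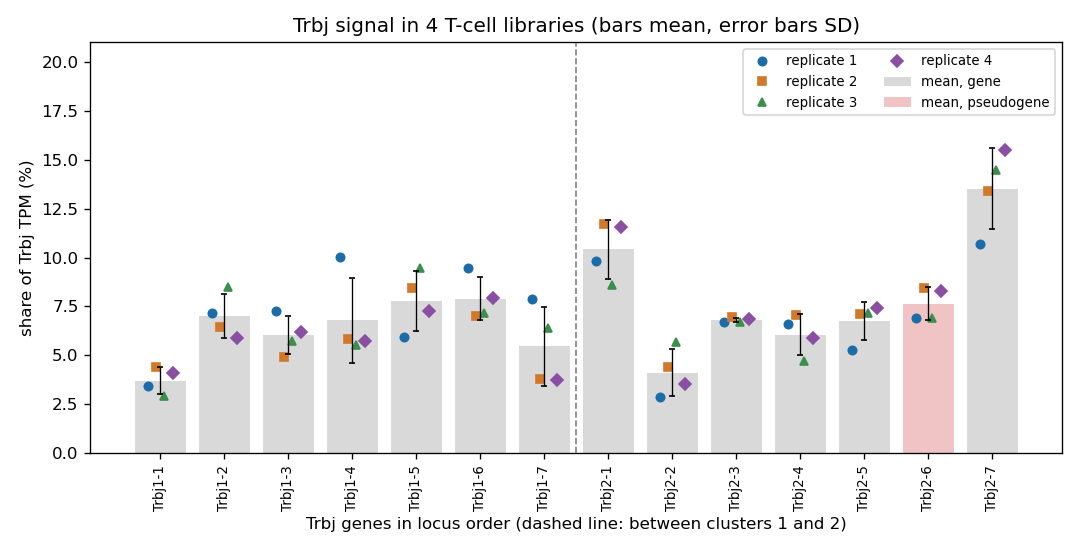
Share of summed Trbj TPM (%, vertical axis) of each of the 14 Trbj segments in locus order, with a dashed line between the clusters. Bars are means over 4 libraries, error bars SD and points single libraries. Trbj2-7 (13.5%) and Trbj2-1 (10.4%) stand highest, and the pseudogene Trbj2-6 (7.65%) lies among the functional segments.

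The J segments that lack the motif gave signal within the range of the others. Trbj2-6, the only J pseudogene, had 129, 148, 107 and 212 counts and stood at 160, 191, 160.0 and 159 TPM. It ranked 5 of 14 by mean share, 7.65 ± 0.847%. Trbj1-7 and Trbj1-6 also lack the motif's letters as searched, though GENCODE types both as J genes. Together the 3 segments took 24.2, 19.3, 20.5 and 20.0% of J TPM. Among the V genes, those typed as pseudogenes took 0.173 to 0.327% of V TPM. Trbj2-6, the only J segment so typed, took 6.90 to 8.45% of J TPM on its own. The kind of transcript behind the J counts was not tested.

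The second cluster held the larger part of the J signal in 3 of 4 libraries. Trbj2 segments had 928, 1051, 850 and 1530 counts and Trbj1 segments 1002, 750, 736 and 1097. The Trbj2 share of J counts was 48.1% (exact Clopper-Pearson 95% interval 45.8 to 50.3), 58.4% (56.0 to 60.6), 53.6% (51.1 to 56.1) and 58.2% (56.3 to 60.1). Replicate 1 was the lowest, and its interval did not meet those of the other 3 libraries. By TPM the Trbj2 share was 48.9, 59.1, 54.3 and 59.1%, or 55.3 ± 4.88%. These values include the pseudogene Trbj2-6, which in replicate 3 held 107 of the 850 Trbj2 counts, beside 736 Trbj1 counts. Without pseudogenes the mean Trbj2 share of TPM was 51.7%, so the lead of the second cluster rests in part on Trbj2-6.

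Of the constant genes, which are not members, Trbc2 held the larger part, with less spread between libraries than the Trbj2 share. Fragments covering both a J and a constant exon may have been counted to neither or to a single gene. These shares therefore need not refer to the same transcripts. Trbc1 (chr6:41538218-41539881) stood at 1112, 1358, 1136 and 1206 TPM and Trbc2 (chr6:41546730-41548352) at 1446, 1527, 1328 and 1466. Trbc2 was higher in 4 of 4 libraries, by 0.38, 0.17, 0.23 and 0.28 in log2(TPM + 1), or 0.26 ± 0.09. Its share of the constant TPM was 54.6 ± 1.54%. The libraries were ordered differently: replicate 1 had the lowest Trbj2 share and the highest Trbc2 share, 56.5%. The near-identical coding parts of Trbc1 and Trbc2 make their split uncertain, since reads that fit both may be missing from either. Summed over the genes, V TPM was 0.875, 0.789, 0.813 and 0.795 of the constant TPM in replicates 1 to 4.

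**Figure D3:**
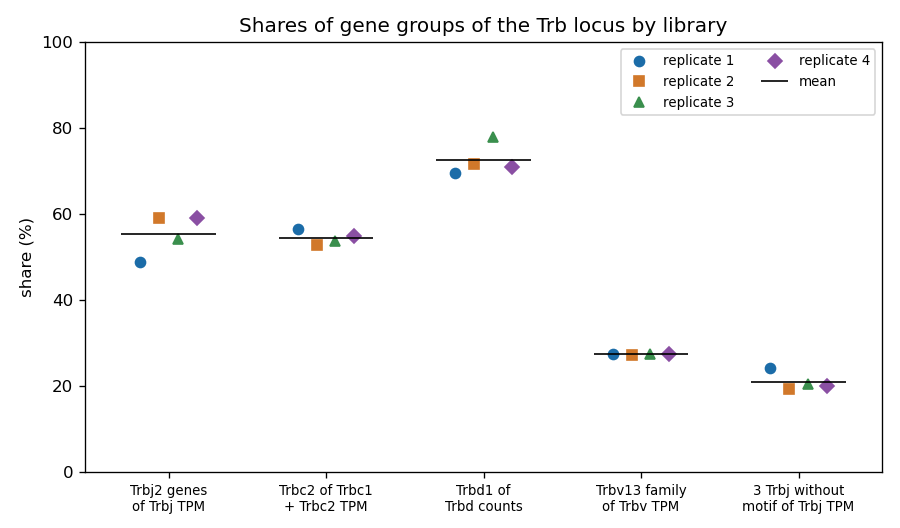
Shares (%, vertical axis) of gene groups of the locus in each of 4 libraries, with a line at the mean. The Trbv13 family sum lies at 27.3 to 27.6% in all libraries, while the Trbj2 share runs from 48.9 to 59.1% and the share of Trbd1 in D counts from 69.7 to 78.0%.

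No member was called variable between the libraries. An edgeR test of whether a gene varied between libraries more than genes of its abundance called 94 of 13681 genes (0.687%) at an adjusted p under 0.05, and 0 of the 38 members that passed its filter on low counts. At an unadjusted p under 0.05 it listed 1 member, Trbv3, and 959 genes in all. Trbv3 had an edgeR adjusted p of 0.517. The next members were Trbj1-7 (edgeR adjusted p = 0.745), Trbj1-4 (0.899) and Trbv30 (0.917). DESeq2 marked 0 members and 43 genes in all as dispersion outliers. In simulated counts the edgeR test recovered 76% of genes changed 2-fold and 28% of genes changed 1.5-fold. The changed genes were drawn from all tested genes, and every change was placed in the same pair of libraries. Recovery at the members' counts, or of a change in a single library, is therefore not known. A 2-fold or larger change in a member could pass unseen. Trbv30 differed 2.86-fold between its highest and lowest library and was not called. The p-values measure only the spread between these libraries, which may be technical.

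With a common dispersion in place of one that depends on abundance, edgeR called 617 of 13681 genes (4.51%), and 3 of the 38 members, Trbj1-4, Trbj1-7 and Trbv30. Trbv30 had 89, 30, 53 and 118 counts, or 15.8, 5.54, 11.4 and 12.7 TPM. Replicate 2 was the low library, and the highest exceeded the lowest 2.86-fold. Trbj1-7 differed 2.54-fold between its highest and lowest library.

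Measured against counting error alone, most shares varied more than sampling would give. The SD of a gene's share of V counts was a median 1.89 times the SD expected from counting over the 22 detected V genes, from 0.434 for Trbv24 to 3.68 for Trbv3, and above 2 for 9 of them. Over the 14 J genes the median was 1.88, from 0.203 for Trbj2-3 to 3.81 for Trbj1-4, and 6 lay above 2. On the TPM scale, among genes with mean counts of 100 to 2000, the coefficient of variation had a median of 8.53% over 20 V genes, 17.7% over 11 J genes and 11.0% over all 4792 genes. Within that window the J genes had mean counts of 120 to 258 and the V genes of 101 to 1956. The medians were therefore not matched for abundance and do not rank the classes.

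**Figure D4:**
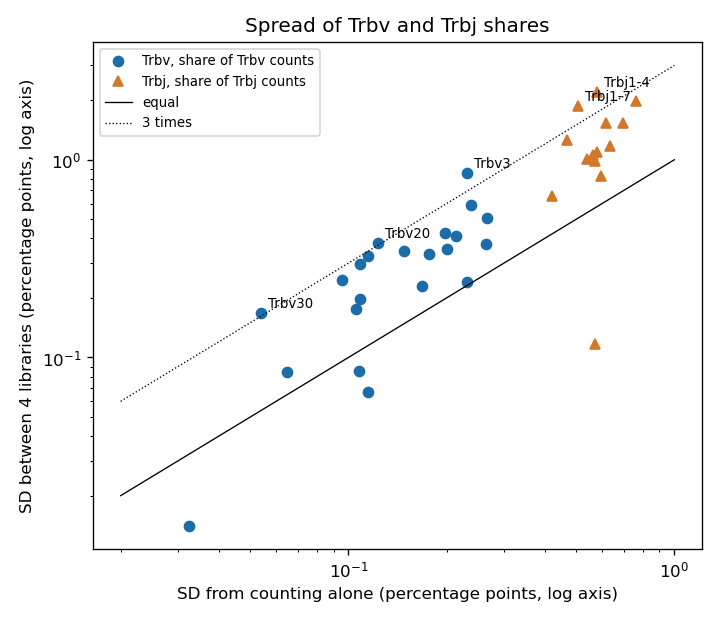
SD of each gene's count share between 4 libraries (percentage points, log axis) against the SD expected from counting alone (log axis), for 22 Trbv and 14 Trbj genes. Most points lie above the solid line of equality, Trbv3, Trbj1-4, Trbj1-7, Trbv20 and Trbv30 above the dotted line at 3 times, and Trbj2-3, Trbv5, Trbv24 and Trbv29 below equality.

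Of the genes that act with the segments, those of the mature receptor were detected and the lymphocyte-specific recombination genes were not. Of 8 receptor assembly genes 7 were detected, among them the alpha constant gene Trac at 1768 ± 84.7 TPM and the signalling chains Cd3d (509 ± 58.3), Cd3e (272 ± 15.5), Cd3g (236 ± 24.6) and Cd247 (107 ± 8.57). The exception was Ptcra, the surrogate alpha chain of immature thymocytes, with 1 count in replicate 4 only. Of 11 recombination genes 8 were detected: the DNA-bending protein gene Hmgb1 (84.1 ± 5.69 TPM) and 7 genes of DNA end joining, led by the Ku subunits Xrcc5 (140.0 ± 7.26) and Xrcc6 (82.0 ± 3.42). The 3 lymphocyte-specific genes were near 0: the recombinase genes Rag1, with 2 counts in replicate 4 only, and Rag2, with 0 counts, and the terminal transferase gene Dntt, with 0, 5, 2 and 1 counts.

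Other genes of the region were mostly silent. The trypsinogen genes embedded in the locus were undetected, 0 of 9, with a summed level of 0.806 to 2.46 TPM, and Prss1, Prss3 and Prss58 had 0 counts. Of 4 genes flanking the locus, Ephb6, an Eph receptor gene beyond Trbv31, was detected at 21.6 ± 1.57 TPM, and Trpv5, Trpv6 and Moxd2 were not.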

How the data were processed

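RNA sequencing values of 4 libraries of mouse T cells (1 group) were used. The deposited values are raw counts of fragments per gene, and per the file headers the authors made them with featureCounts 1.4.6-p4 on exons of GENCODE M13, in paired mode with both ends aligned and strand option 2. The build was mm10 per the labels, and the deposited exon Length served as divisor. The alignment's name includes star2, and which version of the aligner was used is not given in the sources used here. The library protocol linked in the labels is named for polyA+ RNA, while the assay is titled total RNA.

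TPM was computed from counts and Length, and usage shares from TPM. Symbols came from GENCODE M21, to which 50376 of 50600 identifiers matched, and all 51 members kept their coordinates. Variability was tested in edgeR 4.0.16 (R 4.3.3) with TMM factors, filterByExpr, trended dispersion and an intercept-only fit, each deviance against a chi-square distribution, with Benjamini-Hochberg adjustment over 13681 genes. It was tested on simulated data of 13681 genes, where 8 of 157 calls were false. DESeq2 1.42.0 was an alternative. Alignments and reading frames used biopython 1.88 under Python 3.11.15. Per gene and library, precision follows from the counts given.

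Members and gene lists were chosen with earlier results of these data known. Named by rule were Trbv1 and Trbv31, the 10 Trbv genes of highest share, every Trbd and Trbj gene, detected Trbv pseudogenes, V genes with mean counts under 10, members called variable, the Trbv12 and Trbv13 families and the constant genes. The other Trbv genes were named after their values were seen. The alternatives were shares of counts, no pseudogenes, mean counts of at least 10, other detection thresholds, a pseudocount of 0.1, DESeq2 size factors, a common dispersion, tests without a filter and with a mean count minimum of 50, and each replicate left out. Shares by coding length were added after seeing the data.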

Additional observations from a re-analysis of the deposited data

Results flagged for a closer look

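In 2 of 47 values tested for a library that stands apart from the other 3, the gap was larger than Dixon's 95% limit for 4 samples, and chance alone flags about 5% of groups. The share of J TPM of Trbj1-4 was 10.01% in replicate 1, against 5.55 to 5.86% in the others. The share of Trbj2-5 was 5.29% in replicate 1, the lowest library, against 7.10 to 7.44% in the others. Replicate 1 was also the library with the lowest Trbj2 share. The 3 values are shares of the same J total, so they are tied by arithmetic and are not separate observations. Whether they have a common source beyond that was not tested.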

How the results depend on the processing

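With coding length in place of exon length the effective number of Trbv genes (how many equally used genes would give the entropy of the shares) moved from 15.9 to 15.6, and Trbv31 (12.34%) and Trbv13-2 (12.33%) changed places at the top. By the log2 ratio of counts Trbc2 exceeded Trbc1 by 0.15 in place of 0.26. A common dispersion in edgeR called 3 members variable in place of 0, and 617 of 13681 genes in place of 94. Shares of Trbv counts moved 13 of 22 gene shares by more than 1 SD, and coding length moved 12 of 21. Trbv19 and Trbv2, whose exons are 566 and 560 bases long against 352 and 344 coding bases, rose to 6.38 and 6.23% of counts and to 6.26% each by coding length, above Trbv15 and Trbv13-3 in both. The other alternatives run, and leaving out each replicate, kept the effective number, the Trbj2 share, the pseudogene share, the correlation with distance and the number of members detected within 1 SD or 1.5 times, with 37 members detected at a TPM of at least 5. Without pseudogenes the Trbj2 share was 51.7%, and without replicate 1 it was 57.5%. No paired analysis was possible because the series has 1 group. Among detected members, Trbv24 (25.0) and Trbv30 (72.5) had the lowest mean counts, and the J genes had 72.8 to 258.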
